A study of Drosophila melanogaster with 4 samples.

Results

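The antimicrobial peptide genes of Drosophila melanogaster encode small, mostly secreted proteins that kill bacteria and fungi. The genes examined were DptA, DptB, Drs, Mtk, AttA, AttC, AttD, CecB, CecC and Def, and each was read through the probe sets to which the platform annotation gives one of these symbols alone. Of the 10 genes, 6 had such a probe set, with 1 probe set each: DptB, Drs, Mtk, AttD, CecB and Def. DptA, AttA, AttC and CecC had no probe set of that kind in the annotation and were not analysed here. The 6 genes are a small part of the 11981 genes named in this way. Their probe sets all carry the plain suffix that Affymetrix gives to sets designed for a single gene. The cecropin genes are alike in sequence, and whether the CecB probes also detect the others is not given in the annotation used here.

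RNA labelled as from heads of male flies after 24 h of fasting was hybridised to 4 Affymetrix arrays, 1 for each of 4 groups. The titles name the groups WT control, TORC mutant, Rescue control and TORC Neuronal resuce (sic, for rescue). TORC is the CREB coactivator whose current symbol is Crtc. Not stated in the labels are the allele carried by the mutant, the alleles of the rescue control, the driver of the neuronal rescue, the age of the flies or the number of flies behind an array. No group had a replicate, so every fold below is a difference between single arrays and has no p-value.

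Insects have no antibodies and make these peptides as part of innate immunity, mainly in the fat body and in lesser amounts in blood cells and barrier epithelia. A pair of pathways controls most of the transcripts. The Imd pathway is triggered by peptidoglycan of Gram-negative type and acts through the NF-kappaB factor Relish, while the Toll pathway is triggered by fungi and many Gram-positive bacteria and acts through Dif and Dorsal. Diptericins, attacins and cecropins depend mostly on Imd, drosomycin mostly on Toll during systemic infection, and metchnikowin and defensin on both. The fly head contains fat body tissue around the brain.

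Values are deposited signals on a linear scale, and the arrays had equal trimmed means as deposited. A floor of 13.85 was set for dim probe sets, and all 6 genes lay above it on all 4 arrays, so none of their folds is a bound. A gene was called when signals differed at least 2-fold, a log2 ratio of 1 or beyond. The signal of one probe set is not compared with that of another, since probes differ in brightness. As a measure of technical error, differences between the log2 ratios of a gene's paired probe sets were divided by the square root of 2. The robust SD of these values, called the spread between probe sets below, was 0.34 for the mutant over the WT control (375 genes). For the neuronal rescue over the rescue control it was 0.35 (332 genes). That spread leaves out variation between flies and between RNA preparations. Where 4 signals are listed without names, they stand for the WT control, the mutant, the rescue control and the neuronal rescue in that order.

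Several whole-array features bear on what follows. For Crtc the WT control read 203.1, the mutant 3.8, the rescue control 6.7 and the neuronal rescue 37.4. The mutant and the rescue control were thus both below the floor for Crtc. The 12 head tissue markers that were measured, of 21 listed, lay above the floor on all arrays. Of 15 testis and male tract markers, the mutant had 13 below the floor and the rescue control 9, while the WT control and neuronal rescue had none. Transcripts of Bacillus genes, which are added to RNA as controls, had geometric mean signals of 63.0 and 62.8 on the WT control and mutant arrays. On the arrays of the rescue control and neuronal rescue these were 301.7 and 229.1. Both main comparisons lie within one of these pairs of arrays.

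DptB encodes a diptericin, a glycine-rich peptide active against Gram-negative bacteria. The WT control array read 474.5, the mutant 1491.9, the rescue control 4292.9 and the neuronal rescue 1198.7. The rescue control stood above the other arrays and the WT control below them, with the mutant and neuronal rescue close to each other. From dimmest to brightest array DptB spanned 9.05-fold, the widest range of the 6 genes.

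CecB encodes a cecropin, a helical peptide that permeabilises bacterial membranes. The WT control array read 21.1, the mutant 38.6, the rescue control 146.1 and the neuronal rescue 33.5. The rescue control again stood apart, and the other arrays lay within a narrow range close to the floor. CecB spanned 6.92-fold.

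AttD is an attacin, one of the glycine-rich family directed at Gram-negative bacteria, and it lacks the signal sequence of the other attacins. The WT control array read 70.1, the mutant 43.0, the rescue control 222.1 and the neuronal rescue 203.2. AttD was thus bright on the arrays with more of the added transcripts and dim on the others, a grouping that no other member of the 6 showed.

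Drs encodes drosomycin, an antifungal peptide. The WT control array read 2281.2, the mutant 6801.0, the rescue control 7760.6 and the neuronal rescue 6352.5. Only the WT control was set apart for Drs, since the other arrays were within 1.22-fold of each other.

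Mtk encodes metchnikowin, a proline-rich peptide active against fungi and Gram-positive bacteria. The WT control array read 1267.3, the mutant 3532.1, the rescue control 7098.8 and the neuronal rescue 3453.9. The mutant and neuronal rescue arrays were close to equal, between the dim WT control and the bright rescue control.

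Def encodes defensin, a peptide directed mainly at Gram-positive bacteria. The WT control array read 844.0, the mutant 876.1, the rescue control 1020.4 and the neuronal rescue 477.9. Def varied least, 2.14-fold from dimmest to brightest array, and its low array was the neuronal rescue rather than the WT control.

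**Figure D1:**
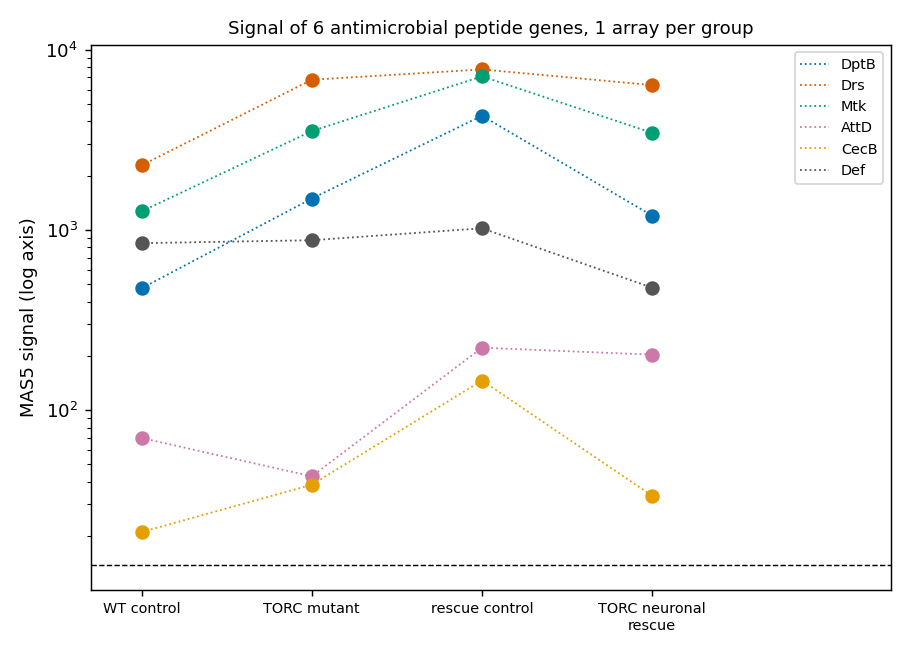
MAS5 signal (log axis) of DptB, Drs, Mtk, AttD, CecB and Def on the 4 arrays, 1 point per array; dotted lines join the points of a gene and imply no order of the arrays, and the dashed line is the floor of 13.85. All 6 genes are brightest on the rescue control array, and DptB, Drs, Mtk and CecB are dimmest on the WT control array.

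All 6 genes were brightest on the rescue control array, or 5 with each array centred on the head tissue markers, when AttD was brightest in the neuronal rescue. Among the 7490 genes above the floor on all arrays, 28.0% had their brightest signal there. The WT control was the dimmest array for 4 of the 6, namely DptB, Drs, Mtk and CecB, against 26.2% of those genes. The same 4 shared one order from bright to dim, rescue control, mutant, neuronal rescue and WT control, which 6.98% of those genes had. The step from the mutant to the neuronal rescue was small in that order. With each array centred on the head tissue markers it turned for all 4, at log2 ratios of 0.09 for DptB, 0.30 for Drs, 0.37 for Mtk and 0.20 for CecB in favour of the neuronal rescue, and no gene of the 6 kept the order. For AttD the mutant was dimmest and for Def the neuronal rescue. For Def the rescue control was 1.21-fold above the WT control and 1.16-fold above the mutant, less than the spread between probe sets of a gene.

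By title the mutant and the WT control differ in TORC. They also differed in male tract and gut marker signal, whose part in the folds was not tested. DptB was 3.14-fold higher in the mutant (log2 ratio 1.65), Drs 2.98-fold (1.58) and Mtk 2.79-fold (1.48). CecB was 1.83-fold higher, short of the threshold, and Def differed by 1.04-fold. AttD was 1.63-fold lower in the mutant, also short of 2-fold, and its log2 ratio of -0.71 became 0.18 under median centring. Thus 3 of 6 genes were called higher and none lower, while 1.74% of all genes were called higher and 11.6% lower in this comparison. The median log2 ratio was 1.18 over the 6 genes and 0.07 over the 7490 genes above the floor on all arrays. Of 9725 genes above the floor on either array, 54 had a higher ratio than DptB, 62 a higher ratio than Drs and 78 a higher ratio than Mtk.

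The titles pair the neuronal rescue with the rescue control for the return of TORC to neurons. These arrays also differed in male tract, gut and yolk protein signal, whose part in the folds was not tested. CecB was 4.36-fold lower in the neuronal rescue (log2 ratio -2.12), DptB 3.58-fold lower (-1.84), Def 2.14-fold lower (-1.09) and Mtk 2.06-fold lower (-1.04). Drs was 1.22-fold lower and AttD 1.09-fold lower, both within the spread between probe sets. Thus 4 of 6 genes were called lower and none higher, while 1.51% of all genes were called lower and 12.8% higher. The median log2 ratio was -1.07 over the 6 genes and -0.14 over the genes above the floor on all arrays. Of 9968 genes above the floor on either array, 9 had a lower ratio than CecB and 13 a lower ratio than DptB. Def and Mtk were close to the threshold: with each array centred on the head tissue markers their log2 ratios were -0.93 and -0.87, which left 2 genes called.

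**Figure D2:**
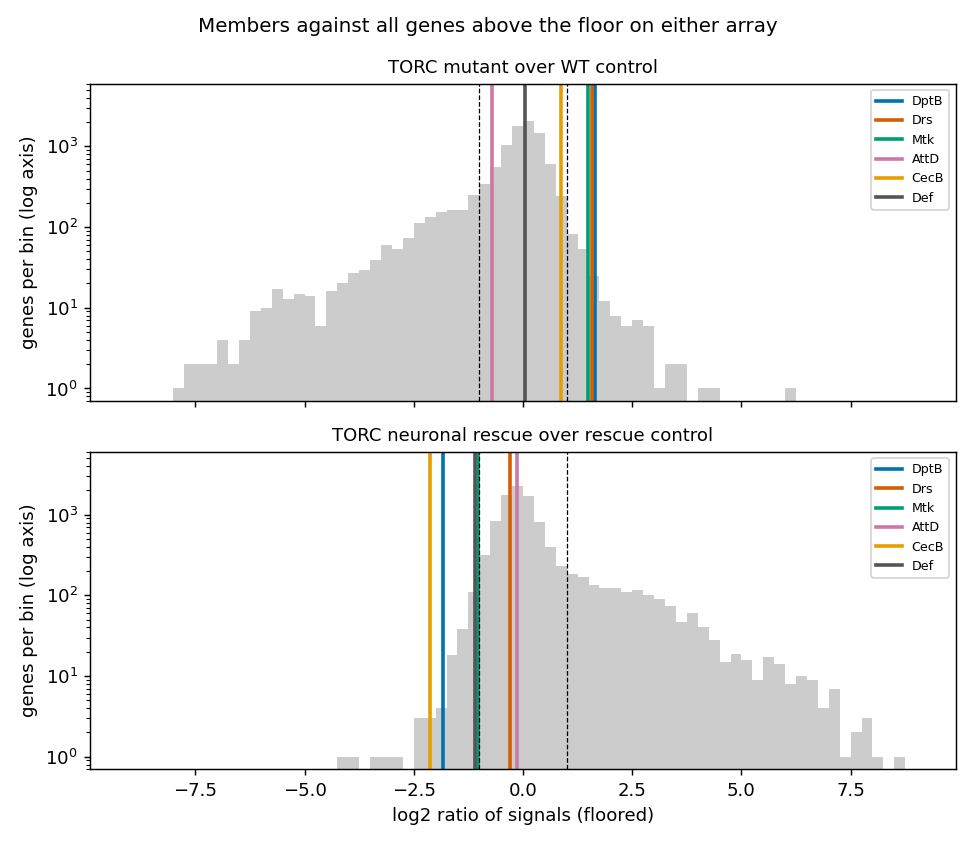
Histogram of log2 signal ratios (bins of 0.25, count on a log axis) over genes above the floor on either array, for the TORC mutant over the WT control (9725 genes) and the TORC neuronal rescue over the rescue control (9968 genes); coloured lines are the 6 peptide genes and dashed lines mark 2-fold. In the upper panel DptB, Drs and Mtk lie at 1.48 to 1.65 and in the lower panel CecB and DptB lie at -2.12 and -1.84, in the thin side of each distribution.

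DptB and Mtk were called in both main comparisons, higher in the mutant and lower in the neuronal rescue than in the matching control, as were 0.292% of all genes (35 of 11981). The 35 also held PGRP-SB1, a secreted amidase that is induced with the peptides by the Imd pathway, the stress peptide gene TotC and the lipid droplet gene Lsd-1. The rest of the 35 were varied and included Cht5, Cpr62Bc, Cpr97Ea, Cyp6a2, GstD2, Pepck2, eya and several genes with CG names. This grouping was made after the values had been seen. Mtk lost its call in the neuronal rescue under quantile normalization (log2 ratio -0.94) and with centring on the head tissue markers (-0.87). It fell just short of a call in the mutant with centring on the fat body markers. The main comparisons share no array, but each starts from a different level. For DptB the mutant and neuronal rescue arrays differed by 1.24-fold, while the controls differed by 9.05-fold.

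The other pairings share arrays with the main comparisons and are given side by side with them. The rescue control was above the WT control for DptB (9.05-fold), CecB (6.92-fold), Mtk (5.60-fold), Drs (3.40-fold) and AttD (3.17-fold), so that 5 of 6 were called higher, against 2.31% of all genes. The neuronal rescue was above the WT control for AttD (2.90-fold), Drs (2.78-fold), Mtk (2.73-fold) and DptB (2.53-fold), 4 of 6 against 5.32% of all genes, and CecB was 1.59-fold higher. The mutant was below the rescue control for AttD (5.17-fold), CecB (3.79-fold), DptB (2.88-fold) and Mtk (2.01-fold), 4 of 6 against 1.87% of all genes. The neuronal rescue and the mutant differed least: AttD was 4.73-fold higher in the neuronal rescue, 1 of 6 called against 13.9% of all genes, and the remaining genes were 1.02-fold to 1.83-fold lower. Of those 5, only Def remained lower with centring on the head tissue markers. These 4 pairings cross the split in the added transcripts, and its part in the folds was not tested.

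Genome order in the RefSeq Release 6 assembly places some of the genes among relatives. CecB lies in the cecropin cluster beside CecC, in which Anp (andropin), a peptide gene of the male ejaculatory duct, also lies. Anp had signals of 479.8, 2.5, 10.8 and 1096.1. It was bright where the male tract markers were bright and below the floor elsewhere, the reverse of CecB in both main comparisons. Mtk lies within the span of Stacl and Def within that of magu, in the same assembly. The brightest Stacl probe set gave 336.5, 410.6, 268.0 and 167.9, and magu ranged from 230.1 in the neuronal rescue to 306.1 in the rescue control. Neither host gene was called in a main comparison by those probe sets. A pair of dimmer Stacl probe sets, at 43.9 and 43.5 in the WT control, fell below the floor in the mutant and were called lower there, by at least 3.17-fold and 3.14-fold.

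Drs belongs to a family with the drosomycin-like genes, all 6 of which were measured. Drsl1 and Drsl6 were below the floor on all arrays, and Drsl2 and Drsl3 lay above it only in the rescue control, at 24.7 and 20.6. Drsl4 had signals of 422.6, 49.9, 52.0 and 26.3, and Drsl5 had 564.4, 221.1, 168.6 and 135.1. Both were brightest in the WT control, the array on which Drs was dimmest, and both were called lower in the mutant, at log2 ratios of -3.08 and -1.35. In that comparison they thus differed in the opposite direction to Drs. In the neuronal rescue against the rescue control, Drs, Drsl4 and Drsl5 all had negative log2 ratios (-0.29, -0.98 and -0.32), none of them called.

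**Figure D3:**
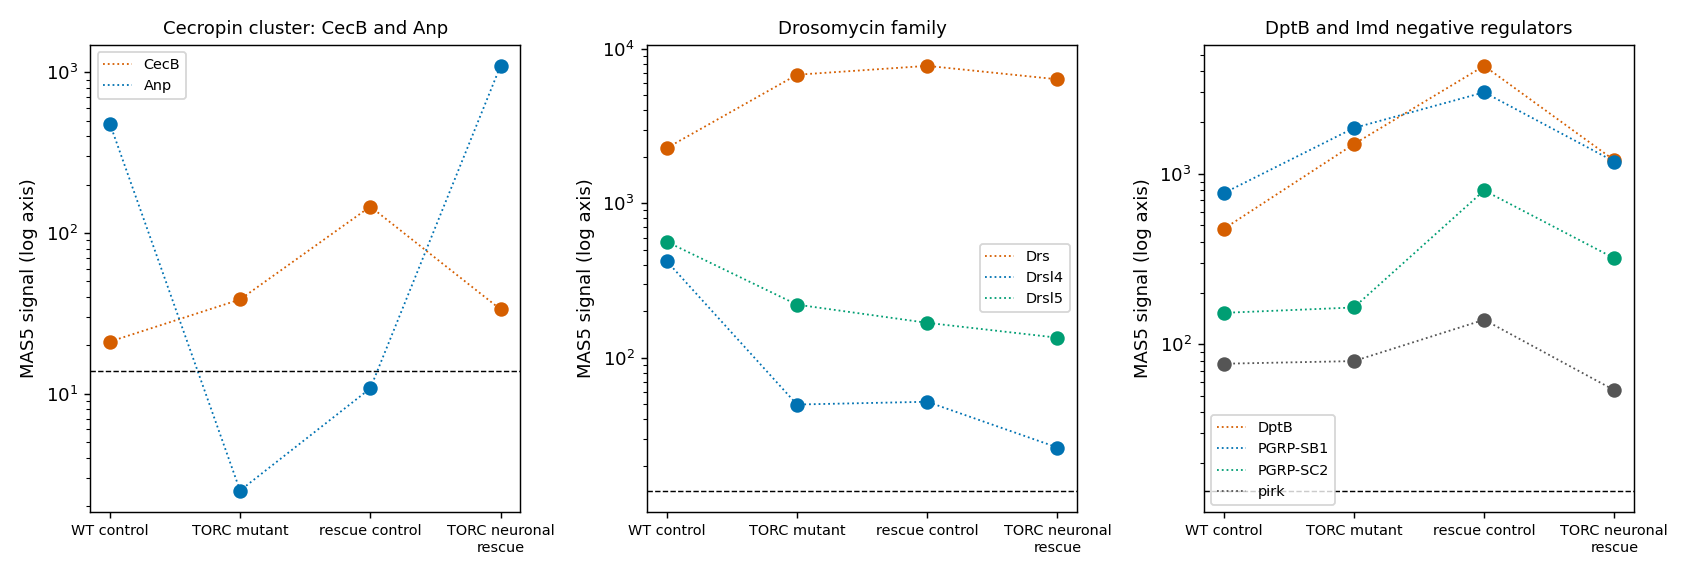
MAS5 signal (log axis) on the 4 arrays for CecB and Anp (left), Drs, Drsl4 and Drsl5 (middle), and DptB with 3 Imd negative regulators (right), 1 point per array; dotted lines join the points of a gene and the dashed line is the floor of 13.85. Anp runs against CecB in both main comparisons, and Drsl4 and Drsl5 are brightest on the WT control array, where Drs is dimmest, while PGRP-SB1, PGRP-SC2 and pirk share with DptB a maximum in the rescue control.

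Of 39 other immune effectors listed, 22 were measured. In the mutant against the WT control, 2 were called higher, BomT2 (log2 ratio 1.04) and the prophenoloxidase gene PPO1 (1.42), and 5 lower, Anp, Drsl4, Drsl5, BomS4 (-1.12) and edin. The list had a median log2 ratio of 0.00. Over all genes 1.74% were called higher and 11.6% lower there, so the count of lower effectors is read against a background in which lower calls were common. In the neuronal rescue against the rescue control, 2 were called higher (Anp and PPO1) and none lower, with a median of -0.23. Over all genes 12.8% were called higher and 1.51% lower in that comparison. Bomanins are short peptides induced by the Toll pathway and needed for resistance to fungi and Gram-positive bacteria. BomS2 had signals of 5825.3, 6950.7, 7210.0 and 7599.2, and BomT3 had 4588.7, 5097.5, 3975.2 and 2190.9. None of the 8 bomanin genes measured was called between the neuronal rescue and its control. The secreted peptide gene edin had 48.3, 12.1, 144.9 and 136.6, which groups the arrays as AttD does.

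The Imd list holds the genes that carry the signal from receptor to Relish. Of 13 measured among 17 listed, none was called in either main comparison. The shares over all genes were 1.74% higher and 11.6% lower in the mutant, and 12.8% higher and 1.51% lower in the neuronal rescue, so a list of this size would hold few calls at those rates. Rel, which encodes Relish, had signals of 629.3, 937.3, 1251.5 and 1044.1, so its arrays ranked with the WT control lowest and the rescue control highest. The adaptor gene imd had 55.9, 62.6, 74.4 and 67.4, and the kinase subunit gene key had 297.9, 314.9, 374.2 and 404.7. List medians of the log2 ratio were 0.13 for the mutant over the WT control and -0.13 for the neuronal rescue over the rescue control.

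Negative regulators of the Imd pathway include genes that the pathway itself induces. PGRP-SB1 had signals of 768.9, 1854.8, 3004.0 and 1177.5. The amidase gene PGRP-SC2 had 152.7, 164.2, 797.7 and 319.1. The gene pirk, whose product removes receptors of the pathway from the cell surface, had 76.8, 79.6, 139.1 and 53.7. All of these were brightest in the rescue control. They were the 3 members called lower in the neuronal rescue, of 13 measured, at log2 ratios of -1.35, -1.32 and -1.37. Over all genes 1.51% were called lower there. Of those 3, PGRP-SB1 was also called higher in the mutant, at 1.27. Of the remaining regulators, cad and nub were called lower in the mutant, at -1.77 as a bound and -1.04 as a bound, since the mutant signal was below the floor for both. Over all genes 1.74% were called higher and 11.6% lower in the mutant. The gene cad, a homeobox factor that restrains peptide genes in the gut, was higher in the neuronal rescue (53.8 against 6.4 in the rescue control).

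In the Toll pathway, none of 20 genes measured, of 23 listed, was called in the mutant against the WT control, where all genes had 1.74% called higher and 11.6% lower. The nearest was the protease gene Hayan, at 82.2, 158.7, 191.9 and 113.2 on the arrays, with a log2 ratio of 0.95. The gene dl, which encodes Dorsal, had log2 ratios of 0.84 by its brighter probe set and 1.02 by the other, so its probe sets fell on opposite sides of the threshold. In the rescue comparison, the protease gene spirit was called higher (21.2 and 46.6) and none lower, against 12.8% and 1.51% of all genes. The inhibitor gene cact, by its brighter probe set, had 641.8, 754.6, 821.0 and 722.2. For Toll genes the median log2 ratio was 0.25 in the first comparison and -0.09 in the second.

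**Figure D4:**
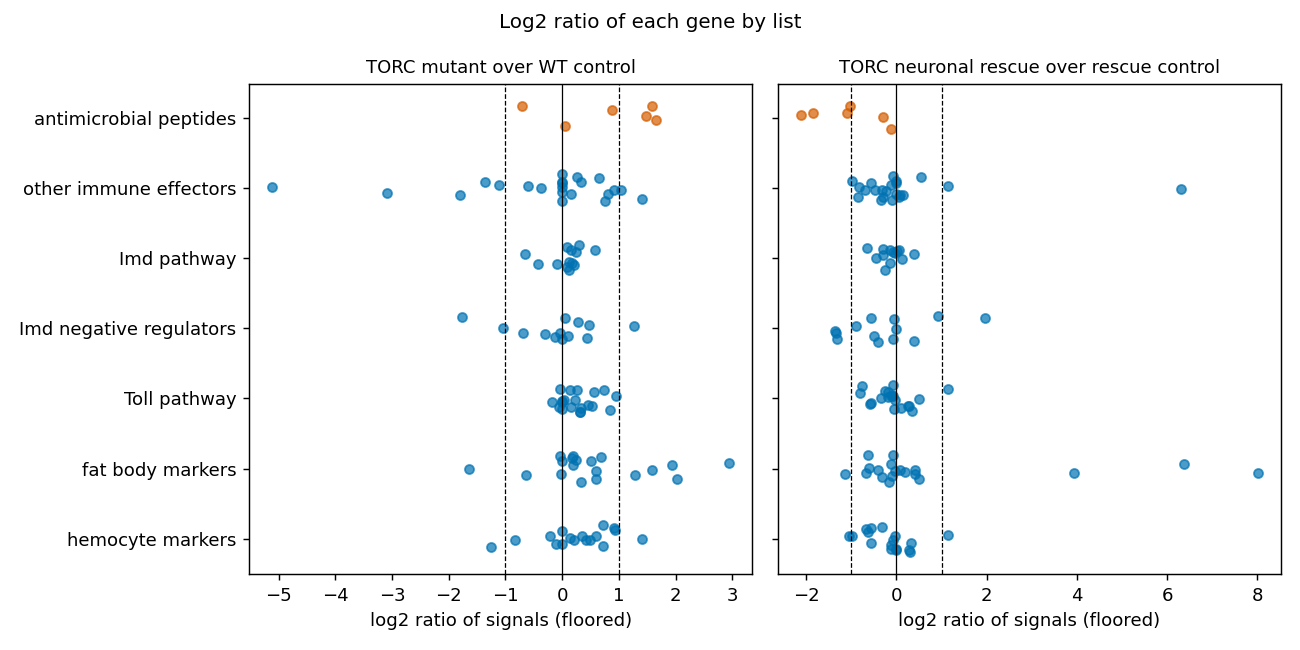
Log2 signal ratio of each gene (1 point per gene, spread vertically at random within a row) in 7 lists for the TORC mutant over the WT control (left) and the TORC neuronal rescue over the rescue control (right); dashed lines mark 2-fold and signals were raised to the floor. The 13 Imd pathway genes stay between the dashed lines in both panels, while 3 of the 6 peptide genes lie beyond the upper line on the left and 4 beyond the lower line on the right.

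Markers of the cells that make these peptides were read on the same arrays. In whole-tissue RNA, more cells of a type and more RNA per cell cannot be told apart. Of 19 fat body markers measured, of 21 listed, the mutant had 5 called higher and 1 lower against the WT control, with a median log2 ratio of 0.33. Over all genes 1.74% were called higher and 11.6% lower in that comparison. Their signals summed to 24972.8 and 42554.1 in the WT control and mutant, with 31262.0 and 34127.4 in the rescue control and neuronal rescue. The yolk protein genes Yp1, Yp2 and Yp3 are part of these sums. Rescue control signals for them were 17.6, 14.8 and 133.0, against 4523.7, 1235.2 and 2033.5 for the neuronal rescue. The gap in Yp1 alone was larger than the gap between the sums of those arrays. The higher sum of the neuronal rescue thus rests on yolk protein signal. Lsp2, a storage protein gene of the fat body, had 1139.0, 8764.8, 8792.7 and 5511.5, and the iron carrier gene Tsf1 had 2237.3, 5418.8, 4896.8 and 3699.5, lowest in the WT control as DptB, Drs, Mtk and CecB were. The WT control was the dimmest array for 8 of the 19. Among these were fit, at 69.1, 264.5, 151.4 and 99.7, and Lsd-1, at 406.0, 1658.3, 1369.6 and 616.5. For the remaining markers another array was dimmest. Miox, an enzyme gene of inositol breakdown, had 558.4, 179.5, 244.4 and 343.7, and the lipoprotein gene apolpp had 5806.4, 6643.2, 5676.9 and 6432.1. With each array centred on the fat body markers, a choice made after seeing the data, the log2 ratios in the mutant over the WT control were 1.17 for DptB, 1.10 for Drs and -1.18 for AttD. Mtk was then just short of 2-fold and AttD was called lower.

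The yolk protein genes, which the fat body list also holds, set the rescue control apart from the other arrays in the opposite direction to the peptides. For Yp1 the rescue control read 17.6, against 3234.6, 4616.7 and 4523.7 on the WT control, mutant and neuronal rescue arrays. All arrays are labelled as male heads, and whether each held the same sex and body parts was not tested. In the neuronal rescue against the rescue control, 3 fat body markers were called higher, all yolk protein genes, and Lsd-1 was called lower. Over all genes 12.8% were called higher and 1.51% lower, and the list median was -0.08.

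Blood cell markers were read in the same way. Of 17 hemocyte markers, all measured, 1 was called higher and 1 lower in each main comparison. The shares over all genes were 1.74% higher and 11.6% lower in the mutant, and 12.8% higher and 1.51% lower in the neuronal rescue. Hml, a defining marker of plasmatocytes, had 151.9, 141.2, 131.6 and 121.4, and NimC1 had 117.0, 157.2, 178.4 and 120.6. The median log2 ratio of these markers came to 0.39 for the mutant over the WT control and -0.12 for the neuronal rescue over the rescue control. NimC4, a phagocytic receptor gene, had 56.8, 108.7, 158.9 and 80.6, the order of the arrays that DptB, Drs, Mtk and CecB had, as NimC1 also did. The list as a whole did not share it. The WT control was the dimmest array for 6 of the 16 markers above the floor on any array, and the brightest for others, among them Hml and atilla. The summed signal of the list ran from 4585.2 in the neuronal rescue to 5437.0 in the mutant, and atilla alone gave 2348.8, 2018.2, 1684.5 and 2064.9 of it. Of the list, gcm2 lay below the floor on all arrays.

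Gut markers had another order. Their summed signal over 11 genes was 7647.7 and 98.5 in the WT control and mutant, with 2209.0 and 5306.0 in the rescue control and neuronal rescue, and 9 of the 11 lay below the floor in the mutant. The summed signal of 15 testis and male tract markers was 23070.1, 7798.5, 7766.8 and 28624.2, of which EbpIII alone gave 7925.0, 7725.1, 7644.3 and 8165.1. The WT control and the neuronal rescue thus had more gut and male tract signal than the other arrays. DptB, Drs, Mtk and CecB were dimmest on the first of these, and on the second lay within 1.24-fold of the mutant. The part of tissue makeup in the folds of the peptide genes was not tested.

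The genes closest in pattern to the peptides were sought by a distance. Each gene's log2 signals were centred on their mean over the 4 arrays, and the Euclidean distance to the mean centred profile of the 6 members was taken over genes above the floor on all arrays and on none of the lists. In log2 units that mean profile ran -0.95, -0.13, 1.08 and -0.01. The nearest genes were CG14221 at a distance of 0.19, CG9945 at 0.28, peg at 0.34, CG2202 at 0.41 and CG3308 at 0.42. CG14221, for example, had signals of 29.5, 54.0, 107.5 and 60.5. The 6 members lay farther from their own mean, from 0.49 for Mtk to 1.55 for AttD, so the mean describes none of them closely.

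**Figure D5:**
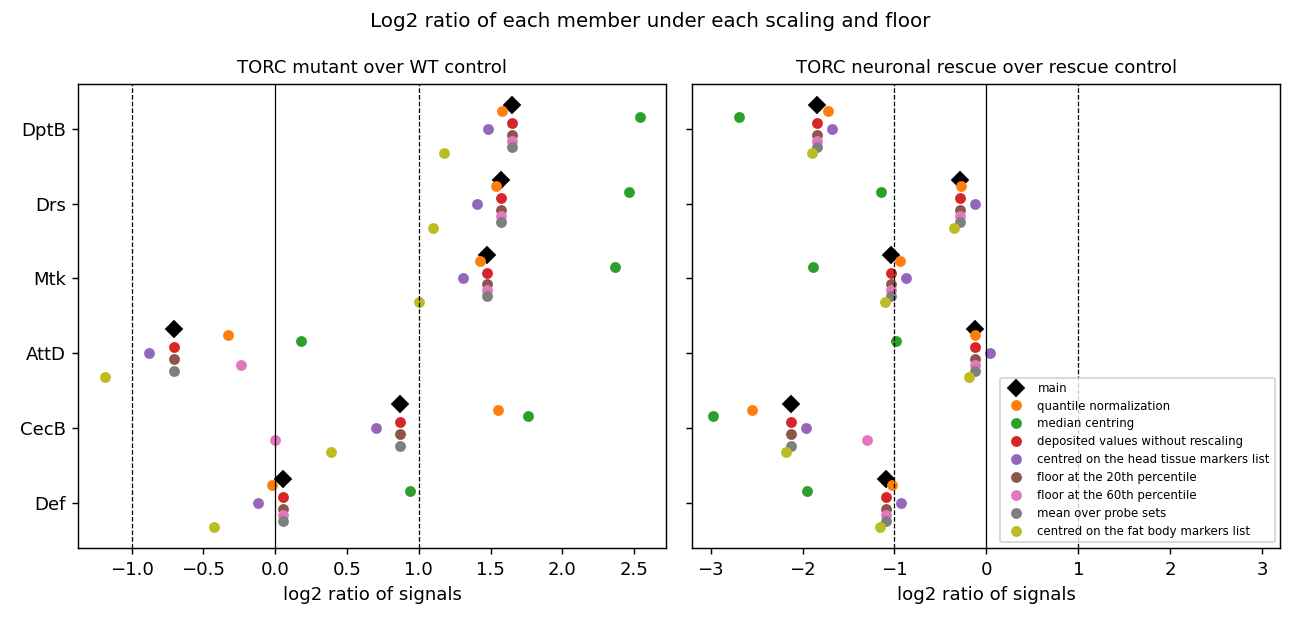
Log2 signal ratio of each of the 6 peptide genes under the main processing (black diamonds) and under other scalings, floors and probe set rules (coloured points), for the TORC mutant over the WT control (left) and the TORC neuronal rescue over the rescue control (right); dashed lines mark 2-fold. DptB and Drs stay beyond 2-fold on the left and DptB and CecB on the right under each setting drawn, while AttD and Def on the left lie on either side of 0. Deposited values without rescaling, averaged probe sets and a floor at the 20th percentile could not change these ratios.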

How the data were processed

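The deposited table holds linear intensity values, 1 per probe set and array. MAS5 is the tool that the submitters' processing notes name, and its version is not given in the sources used here. In the values, all 4 columns had a trimmed mean of 150.0 after 2% was left out at each end. Of 18952 probe sets, 183 were controls. Probe sets with 1 symbol in the platform annotation were named, with current symbols looked up in RefSeq by Entrez identifier. The probe set with the highest mean signal stood for a gene with several.

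Signals were brought to an equal trimmed mean, raised to a floor (median over arrays of the 40th percentile of probe sets that are not controls) and log2 transformed. All 6 pairings of arrays were compared, with a call at 2-fold and no test, since each group had 1 array. The number of arrays limits the precision. Calling was tested on simulated data. Changes were planted in genes well above the floor, with noise smaller than the spread between probe sets. That checks the code, not the error of calls on these arrays. Lists held peptides, immune pathways and tissue markers, and medians were taken over members above the floor on at least 1 array. Named genes were all members, Crtc, list members called in a main comparison or shown for their level, and the 5 genes nearest in pattern. Stacl, magu and TotC were added after values had been seen. The members and lists were chosen with earlier results of these data known. Sequence features were not analysed here. The 10 alternatives are described in the closing section. For the 6 peptide genes, deposited values without rescaling, averaging of probe sets and the floor at the 20th percentile could not change a ratio. Trimmed means were already equal, each gene had 1 probe set, and all signals lay above the main floor. Python 3.11.15, numpy 2.4.6, pandas 2.3.3, scipy 1.17.1 and matplotlib 3.10.9 were used.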

Additional observations from a re-analysis of the deposited data

How the results depend on the processing

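Directions and calls of the 6 peptide genes were recomputed under 3 other scalings, centring on the head markers or (chosen after seeing the data) on the fat body markers, 2 other floors, averaging of probe sets, and 1.5-fold or 3-fold as the threshold. Of 120 log2 ratios in the main comparisons, 104 kept their side of the threshold, with any change of sign smaller than the spread between probe sets. These include all ratios under 3 settings that could not change them (see above). Another 6 became calls, 8 ceased to be calls and 2 changed sign by more than that spread without being calls. The latter were AttD (0.18 under median centring) and Def (-0.43 under fat body centring), both in the mutant over the WT control. Smaller changes of sign below 2-fold also occurred for Def in the mutant (-0.02 under quantile normalization, -0.12 under head centring) and for AttD in the neuronal rescue (0.04 under head centring). All 6 genes were brightest in the rescue control under each setting but head centring, which left 5 (not AttD). The order rescue control, mutant, neuronal rescue and WT control, which 4 genes had, was held by 0 under head or fat body centring, since the neuronal rescue then stood above the mutant for DptB, Drs, Mtk and CecB, and by 3 under quantile normalization and with a floor at the 60th percentile. Median centring moved the median log2 ratio of the 7490 genes that no array had at the floor from 0.07 to 0.95 for the mutant over the WT control and from -0.14 to -0.99 for the neuronal rescue over the rescue control, so ratios under it are read relative to that shift.

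Against the WT control, 3 peptide genes were higher in the mutant, and 1 at 3-fold. Quantile normalization and median centring each gave 4 higher, and Mtk fell just short of a call with fat body centring. No peptide gene was lower in the mutant (0), and 1 at 1.5-fold or with fat body centring (AttD). Those lower in the neuronal rescue than in the rescue control numbered 4, and 2 at 3-fold or with head centring. Quantile normalization gave 3 and median centring 5. Those lower in the neuronal rescue than in the mutant numbered 0, but 4 with median centring and 1 at 1.5-fold. At 3-fold, 2 rather than 4 were lower in the mutant than in the rescue control and 0 rather than 4 higher in the neuronal rescue than in the WT control, and at 1.5-fold 1 rather than 0 was lower in the latter. Among 68 genes of the effector, Imd and Toll lists, the mutant had 3 higher and 7 lower against the WT control. Over all genes 1.74% were higher and 11.6% lower there, and shares over all genes under the other settings are not given here. Median centring gave 34 and 4, the 1.5-fold threshold gave 10 higher, the 3-fold threshold 0 and 4, the floor at the 60th percentile 4 lower, and fat body centring 0 higher. In the neuronal rescue against the rescue control 4 were higher and 3 lower, while 12.8% of all genes were higher and 1.51% lower. Quantile normalization gave 2 and 7, median centring 2 and 30, the floor at the 20th percentile 7 and 6, the floor at the 60th percentile 1 higher, the 1.5-fold threshold 11 lower, and the 3-fold threshold 2 and 0. The cause of these shifts was not tested, apart from the thresholds themselves. No paired analysis was possible because each group had 1 array. CecB lay nearest the floor, and a floor at the 60th percentile covered its mutant and WT control signals.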
